A study of Mus musculus with 12 samples.

Results

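The genes examined here encode the proteins of the mitochondrial ribosome and were chosen by symbol. A row of the triceps brachii RNA-Seq table was a member when its symbol began with Mrpl or Mrps followed by a digit, and this found 75 of the 10187 genes in the table. Of these, 46 carried an Mrpl symbol, for the large subunit, and 29 an Mrps symbol, for the small subunit. Membership followed from the symbol alone, and the family was chosen with earlier results of these data known.

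The mitochondrial ribosome translates the messages of the 13 protein-coding genes of the mitochondrial genome, all of which encode subunits of the oxidative phosphorylation complexes. Its RNAs come from mitochondrial DNA, whereas every one of its proteins is encoded in the nucleus, made in the cytosol and imported. The small subunit binds the message and decodes it, and the large subunit forms the peptide bond and releases the new chain next to the inner membrane. Many of the proteins have a bacterial counterpart and the others are found only in mitochondria. Endurance activity is known to raise the mitochondrial content of skeletal muscle fibres, and slow fibres hold more mitochondria than fast fibres.

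The muscle, an extensor of the forelimb, came from 12 male C57/BL6 mice in 4 groups of 3 that crossed genotype with physical activity. Wild-type mice had a normal Mstn gene (IW when inactive, AW when active), and myostatin-reduced mice (IM and AM) carried a floxed Mstn gene that Cre recombinase disrupted after tamoxifen. All 12 mice ate chow with 0.025% tamoxifen for 6 weeks in total, so that the wild-type groups shared the drug. From 6 months of age the active mice lived singly with a running wheel for 12 weeks and the inactive mice, housed in groups until that age, had none. Per the study's methods, the myostatin-reduced and wild-type mice sampled had been matched by how they ran. How the inactive mice were caged after that age was not given in the sources used here, and single caging and running cannot be told apart. The promoter driving Cre was not given in the sources used here.

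Summed normalized read counts were 927958 to 1080139 per mouse, from an estimated 9023615 to 12184277 reads. The members took 0.227% to 0.324% of the sum, or an estimated 23587 to 38106 reads, so 3 reads corresponded to 0.231 to 0.316 normalized read counts. Mstn, the targeted gene, had 79.7 to 138 normalized read counts in wild-type mice and 8.70 to 21.6 in myostatin-reduced mice, without overlap. All 10 skeletal muscle markers on a short list were in the table. Their summed value was 188930 to 245290 in inactive and 162529 to 207245 in active mice, with overlap. The tissue was sampled whole, so fewer mitochondria-rich cells and less message per cell cannot be told apart in any value below.

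The members were expressed at moderate levels. Their mean over the 12 mice had a median of 31.2 normalized read counts and ranged from 5.70 for Mrps33 to 152 for Mrpl42. To compare genes, each mean was divided by the length of the longest protein-coding transcript. The median level was then 23.2 per kb for the 75 members, 27.6 per kb for the large subunit and 16.1 per kb for the small subunit, against 6.80 per kb over the 10116 genes of the table with an annotated position. Mrpl42, Mrpl33 and Mrpl30, all of the large subunit, had the highest levels, at 229, 90.9 and 87.2 per kb. Mrps5, Mrps25 and Mrpl47 had the lowest, at 4.71, 3.86 and 3.50 per kb. Shorter transcripts of a gene were not considered.

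Promoter windows show what members with large and small changes have upstream. RefSeq (build GRCm38.p6) gave 72 windows for 66 of the 75 members, each running from 250 bases before to 50 bases after an annotated start. They were searched on both strands for NRF1 (GCGCANGCG), ETS/GABP (CCGGAAG), YY1 (AAGATGG), ERR (AAGGTCA), an E-box (CACGTG) and a GC box (GGGCGG). NRF1, GABP, YY1 and ERR are factors known for the control of nuclear genes of mitochondrial proteins. The ETS/GABP letters were in 33.3% of member windows against 17.4% of the 9525 windows of all genes in the table. The NRF1 letters were in 20.8% against 13.9%, those of YY1 in 18.1% against 7.34%, and those of ERR in 5.56% against 3.12%. The GC box was in 51.4% against 63.7%, and the E-box in 9.72% against 10.4% (by gene, 7.58% against 12.5%). The windows are printed with the NRF1, ETS/GABP, YY1 and ERR matches in capitals, a match on the opposite strand being read in its complement. Mrpl41 (chr2:24975049-24975348, minus strand), Mrpl12 (chr11:120484387-120484686, plus strand) and Mrps9 (chr1:42850983-42851282, plus strand) are shown because they had the largest change with activity among the members with a window. Mrpl45 (chr11:97315466-97315765, plus strand) is shown because its window holds NRF1 letters at 3 positions, and Mrps11 (chr7:78782881-78783180, plus strand) because its window shares 141 bases with that of its neighbour Mrpl46. Mrpl17 (chr7:105811038-105811337, minus strand) is shown because its change with activity was the smallest of all members tested.
Mrpl41: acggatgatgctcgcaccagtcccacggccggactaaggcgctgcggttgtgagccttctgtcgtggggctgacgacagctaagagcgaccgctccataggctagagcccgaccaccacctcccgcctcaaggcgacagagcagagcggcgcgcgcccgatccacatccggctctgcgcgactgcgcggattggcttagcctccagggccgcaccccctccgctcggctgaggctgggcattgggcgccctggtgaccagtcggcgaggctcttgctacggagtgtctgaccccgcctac
Mrpl12: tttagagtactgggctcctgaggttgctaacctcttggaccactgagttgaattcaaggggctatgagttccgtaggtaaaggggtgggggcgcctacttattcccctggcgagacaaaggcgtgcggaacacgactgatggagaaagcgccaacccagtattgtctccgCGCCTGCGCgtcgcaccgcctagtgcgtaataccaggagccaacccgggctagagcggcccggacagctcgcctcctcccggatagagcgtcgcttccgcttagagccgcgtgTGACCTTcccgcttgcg
Mrps9: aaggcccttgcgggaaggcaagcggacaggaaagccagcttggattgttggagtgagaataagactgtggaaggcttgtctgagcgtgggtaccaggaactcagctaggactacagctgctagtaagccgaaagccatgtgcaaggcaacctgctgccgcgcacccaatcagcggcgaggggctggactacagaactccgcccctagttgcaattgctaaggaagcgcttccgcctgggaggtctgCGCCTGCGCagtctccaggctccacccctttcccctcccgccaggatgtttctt
Mrpl45: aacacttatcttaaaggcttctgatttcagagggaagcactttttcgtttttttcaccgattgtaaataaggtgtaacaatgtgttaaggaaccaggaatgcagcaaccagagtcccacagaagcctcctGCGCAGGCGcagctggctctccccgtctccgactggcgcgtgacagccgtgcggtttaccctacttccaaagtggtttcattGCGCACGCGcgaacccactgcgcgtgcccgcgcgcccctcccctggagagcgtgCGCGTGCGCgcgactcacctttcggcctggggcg
Mrps11: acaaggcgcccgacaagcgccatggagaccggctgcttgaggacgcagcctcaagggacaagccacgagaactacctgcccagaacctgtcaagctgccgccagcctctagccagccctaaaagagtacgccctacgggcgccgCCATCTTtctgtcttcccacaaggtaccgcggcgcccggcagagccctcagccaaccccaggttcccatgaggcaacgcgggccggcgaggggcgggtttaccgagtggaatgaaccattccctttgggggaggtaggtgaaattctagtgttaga
Mrpl17: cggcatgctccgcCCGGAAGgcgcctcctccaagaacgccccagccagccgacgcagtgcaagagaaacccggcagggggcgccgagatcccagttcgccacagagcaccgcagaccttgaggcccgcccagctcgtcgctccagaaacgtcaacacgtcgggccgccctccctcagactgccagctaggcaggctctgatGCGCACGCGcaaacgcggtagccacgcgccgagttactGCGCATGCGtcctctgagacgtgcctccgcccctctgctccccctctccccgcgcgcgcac

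The window of Mrpl41 held none of the letters of these 4 factors, nor did that of Mrpl46. In Mrpl12 the NRF1 letters began at base 171 of the window, 80 bases before the start, and the ERR letters at base 284. In Mrpl17 the NRF1 letters were present at bases 202 and 240 and the ETS/GABP letters at base 14. The NRF1 letters were thus in both windows, the ERR letters in that of Mrpl12 alone and the ETS/GABP letters in that of Mrpl17 alone. Counted by gene, since the windows of one gene can overlap, the NRF1 letters were held by 26.3% of the 38 members over-expressed in active mice, as tested below, and by 19.2% of the 26 tested and not called. For ETS/GABP the shares were 31.6% and 42.3%, for YY1 13.2% and 30.8%, and for ERR 2.63% and 11.5%. The GC box was in 39.5% and 57.7% and the E-box in 5.26% and 11.5%. Letters in a window describe the sequence and not the binding of a factor.

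The first comparison asked whether the members as a whole differed between active and inactive mice. Over the 75 members the summed normalized read count was 2610, 2587 and 2588 in IW mice 1, 2 and 3, respectively. The sum was 2879, 2928 and 3003 across AW mice. For IM mice the sum was 2486, 2436 and 2452, and the AM mice had 2849.7, 2935 and 2925. Every active mouse was above every inactive mouse, with 2920.1 ± 52.4 in active and 2527 ± 77.4 in inactive mice (SD, n = 6). The sum was 15.6% higher in active mice, 13.2% higher in the wild-type and 18.1% higher in the myostatin-reduced. Counted by gene, 54 to 67 of the 75 members in each active mouse were above their own median over the 12 mice, and 3 to 21 in each inactive mouse. This count was not made over all genes, so it has no background, and the members are not independent of each other.

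**Figure D1:**
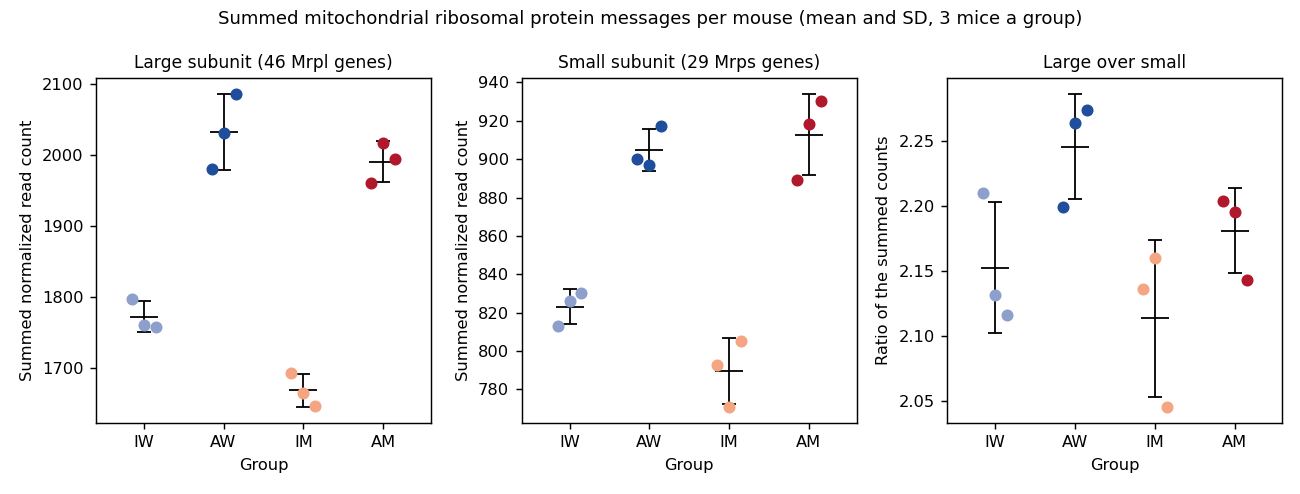
Summed normalized read count per mouse of the 46 large-subunit members (left) and the 29 small-subunit members (middle), and the ratio of the sums (right), for the 4 groups IW, AW, IM and AM, with points for mice and bars for the mean and SD of 3 mice. Neither axis starts at 0. Both sums are higher in every active mouse than in every inactive mouse, and the ratios of active and inactive mice overlap.

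Both subunits took part. The large-subunit sum was 1758 to 1797 in IW mice, 1979 to 2086 across AW mice, 1647 to 1694 across IM mice and 1960 to 2017 among AM mice. The small-subunit sum was 813 to 831 in IW mice, 897 to 917 across AW mice, 771 to 805 across IM mice and 889 to 930.4 in AM mice. Active mice were higher by 16.9% in the large-subunit sum and by 12.7% in the small-subunit sum. The ratio of the large to the small sum in IW mice was 2.21, 2.13 and 2.12, that of AW mice 2.20, 2.26 and 2.27, that of IM mice 2.14, 2.16 and 2.05, and that of AM mice 2.20, 2.20 and 2.14. Its mean was 2.21 ± 0.048 in active and 2.13 ± 0.054 in inactive mice (SD, n = 6), and the ranges of 2.14 to 2.27 and 2.05 to 2.21 overlapped. The mean ratio of active mice was 1.04 times that of inactive mice, a difference that was not tested. A ratio of sums of reads that are not divided by length does not give the number of subunits.

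Each member was then tested for differential expression between active and inactive mice with limma over the 7247 genes whose mean was at least 10 normalized read counts. This filter kept all 46 large-subunit members and 27 of the 29 small-subunit members, with Mrpl22 (mean 10.3) and Mrpl47 (11.8) just inside it and Mrps33 (5.70) and Mrps36 (6.85) just outside. All 73 members tested had a positive log2(fold change), from 0.01 to 0.44 with a median of 0.20, where the median of all genes tested was -0.02. At an FDR-adjusted P-value under 0.05, 42 of the 73 members (57.5%) were over-expressed in active mice, and 7.99% of all genes tested were. No member was under-expressed. By subunit, 30 of 46 large-subunit members (65.2%, median log2(fold change) 0.21) and 12 of 27 small-subunit members (44.4%, median 0.17) were over-expressed. The difference between the subunits was not tested, because the members are not independent of each other. With slow-fibre genes accounted for by a covariate, described further on, 18 members remained called, and without AW mouse 3 the count was 25. The genes called in either direction were 401 and 552 in these fits, against 1051.

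**Figure D2:**
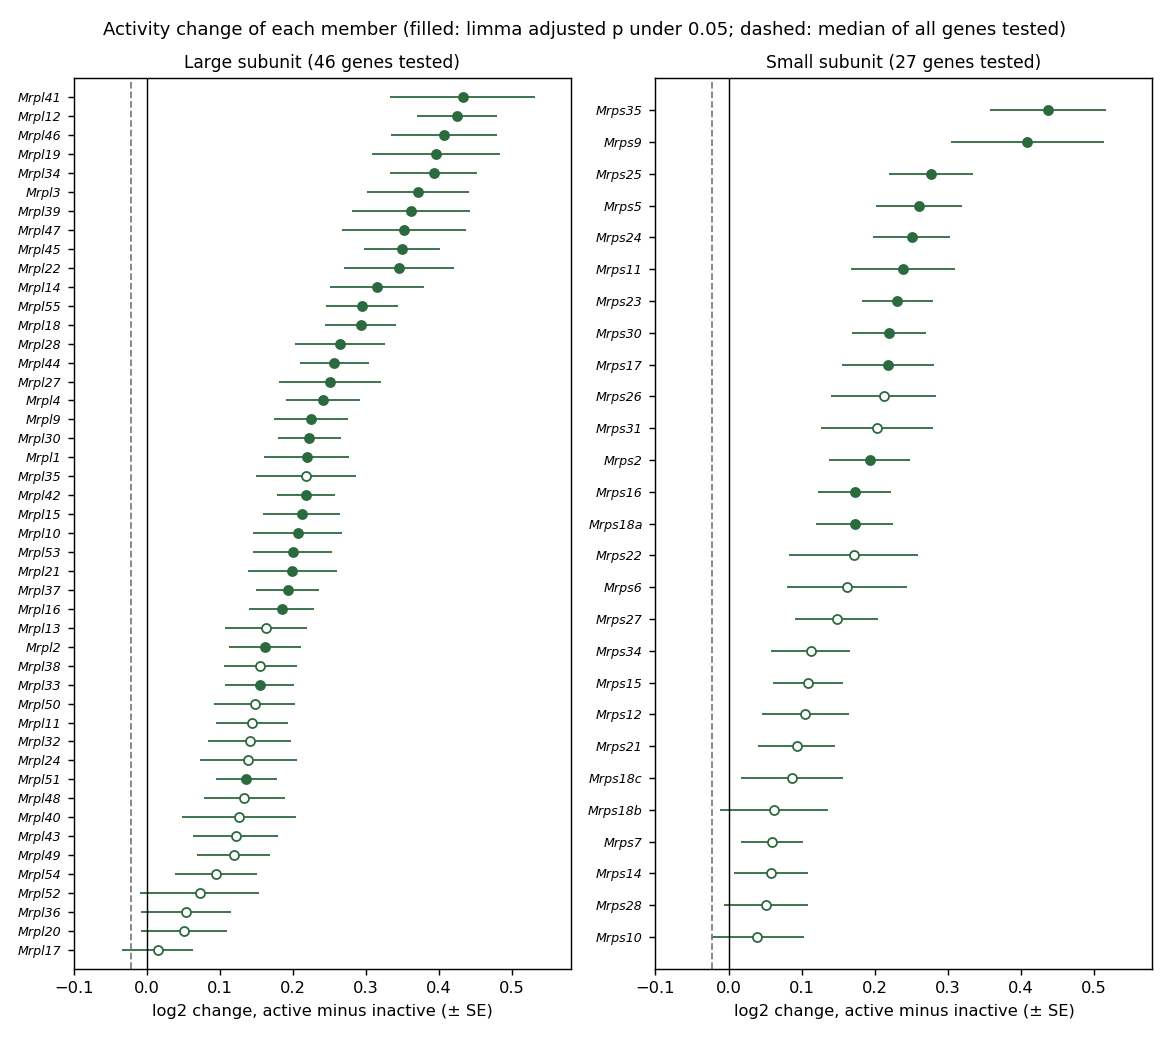
Log2(fold change) between active and inactive mice of the 46 large-subunit members (left) and 27 small-subunit members (right) tested, with bars for the standard error; filled points passed an FDR-adjusted P-value of 0.05 in limma, and the dashed line marks the median of all 7247 genes tested. Every member lies to the right of 0, from Mrpl17 at 0.01 to Mrps35 at 0.44.

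Among all genes tested these were modest changes with many members close together. Ordered from the highest log2(fold change), 16 members were among the first 500 of the 7247 genes and 43 among the first 1000, Mrps35 being highest at place 208. A log2(fold change) over 0.3 was found in 13 members, 11 of the large and 2 of the small subunit, and all 13 were called. Grouped by origin, 28 of the 46 members with a bacterial counterpart (60.9%, median 0.20) and 14 of the 27 mitochondria-specific members (51.9%, median 0.20) were over-expressed.

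Among large-subunit proteins, Mrpl12 forms the stalk that recruits translation factors and is the counterpart of bacterial L7/L12. Its gene has 5 exons on the plus strand of chromosome 11, from 120345927 to 120350379 (mm9, the build of all gene positions given here). The normalized read counts of Mrpl12 were 100.5, 88.3 and 97.2 in IW mice, 111, 119.8 and 126 across AW mice, 83.0, 78.9 and 78.0 across IM mice and 109.9, 127 and 112 in AM mice. All 6 active mice were above all 6 inactive mice, and IM mice were the lowest. Its log2(fold change) with activity was 0.42 (SE 0.054, FDR-adjusted P-value = 0.00129), the smallest P-value of any member. Mrpl12 shares 200 exon bases with Gm16755, a noncoding gene on the opposite strand.

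Mrpl41 and Mrpl46 are mitochondria-specific proteins of the large subunit. Mrpl41, on chromosome 2 from 24829637 to 24830618, had 15.5, 14.0 and 10.4 normalized read counts in IW mice, 17.2, 20.5 and 19.7 across AW mice, 12.3, 14.7 and 12.7 across IM mice and 15.7, 20.03 and 16.1 in AM mice. Active and inactive mice did not overlap, though AM mouse 1 (15.7) was close to IW mouse 1 (15.5). The log2(fold change) was 0.43 (SE 0.099, FDR-adjusted P-value = 0.0137), and with the slow-fibre covariate it was 0.34 and not called (0.0963). Mrpl46, on chromosome 7 from 85920122 to 85928417 on the minus strand, had 18.2, 17.8 and 16.3 in IW mice, 22.1, 23.9 and 21.0 across AW mice, 17.5, 14.4 and 13.04 across IM mice and 20.8, 22.1 and 20.3 in AM mice. Again the lowest active mouse was above the highest inactive mouse, with a log2(fold change) of 0.41 (SE 0.072, FDR-adjusted P-value = 0.00405).

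Mrpl19, the counterpart of bacterial L19 at the face between the subunits, had 24.98, 22.2 and 18.3 normalized read counts in IW mice, 25.7, 31.1 and 30.7 across AW mice, 19.5, 21.6 and 22.1 across IM mice and 30.7, 29.04 and 23.9 in AM mice. Active mice were above inactive mice within each genotype, but AM mouse 3 was below IW mouse 1. Its log2(fold change) was 0.40 (SE 0.088, FDR-adjusted P-value = 0.0119), and the slow-fibre covariate ended the call (0.28, FDR-adjusted P-value = 0.0809). Its longest transcript has 5000 bases, and its exons share 1962 with AW146020 on the opposite strand. Mrpl3, near the centre where the peptide bond is formed, had a log2(fold change) of 0.37 (SE 0.069, FDR-adjusted P-value = 0.00508). Its mean rose from 39.0 ± 3.55 normalized read counts in inactive to 50.7 ± 4.90 in active mice (SD, n = 6). The ranges of 35.7 to 44.8 and 43.45 to 56.9 overlapped, AW mouse 1 being below IW mouse 1. Mrpl45, which links the tunnel exit to the inner membrane, had 47.0 to 56.5 in inactive and 58.5 to 68.0 in active mice, without overlap. Its log2(fold change) was 0.35 (SE 0.052, FDR-adjusted P-value = 0.00186).

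Mrpl42, the member with the most reads, had 147, 143 and 148 normalized read counts in IW mice, 162, 166 and 170.5 across AW mice, 139, 136 and 132 across IM mice and 161, 155 and 169 among AM mice. The lowest active mouse was above the highest inactive mouse. Its log2(fold change) was 0.22 (SE 0.040, FDR-adjusted P-value = 0.00454), near the median of the members. Mrpl30 had 81.9, 76.01 and 81.4 normalized read counts in IW mice, 90.4, 91.9 and 98.6 across AW mice, 76.85, 78.4 and 73.1 across IM mice and 89.9, 87.1 and 88.7 in AM mice. It was likewise without overlap (log2(fold change) 0.22, SE 0.043, FDR-adjusted P-value = 0.00593). Mrpl33 had 41.9, 42.9 and 42.8 normalized read counts in IW mice, 48.5, 45.9 and 45.2 across AW mice, 38.6, 38.9 and 41.55 across IM mice and 41.9, 45.6 and 47.99 in AM mice. Active mice were above inactive mice within each genotype, though AM mouse 1 was below 2 IW mice (log2(fold change) 0.15, SE 0.047, FDR-adjusted P-value = 0.0466). That call was lost with the replicate block (0.0571), without the filter (0.0637), without the trend (0.0567), with the slow-fibre covariate (0.0608) and without any one mouse other than AM mouse 1 (0.0562 to 0.103), with log2(fold change) values from 0.13 to 0.19. Mrpl33 shares 147 exon bases with Bre on the same strand. At the low end of the levels, Mrpl47 had 11.9, 10.7 and 10.5 normalized read counts in IW mice, 12.5, 13.1 and 16.1 across AW mice, 10.9, 8.73 and 8.72 across IM mice and 12.01, 13.8 and 12.5 in AM mice. All active mice were above all inactive mice, with a log2(fold change) of 0.35 (SE 0.085, FDR-adjusted P-value = 0.0176). The call of Mrpl47 was lost with the slow-fibre covariate (0.29 on the log2 scale, FDR-adjusted P-value = 0.109) and without AW mouse 3 (0.30, 0.0517).

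In the small subunit the changes were led by Mrps35 and Mrps9. Mrps35 encodes a mitochondria-specific protein from the plus strand of chromosome 6 (146991286 to 147019425). It had 16.2, 12.6 and 13.1 normalized read counts in IW mice, 20.2, 18.2 and 21.2 across AW mice, 14.4, 12.2 and 13.5 across IM mice and 16.8, 19.8 and 16.8 in AM mice. All active mice were above all inactive mice, with a log2(fold change) of 0.44 (SE 0.080, FDR-adjusted P-value = 0.00442), the highest of any member. Mrps9 is the counterpart of bacterial S9, whose tail touches transfer RNA on the ribosome, and lies on chromosome 1 from 42908078 to 42962527. Its values were 32.2, 23.8 and 25.6 in IW mice, 27.4, 37.6 and 39.5 across AW mice, 22.9, 22.6 and 27.5 across IM mice and 32.3, 39.3 and 31.4 in AM mice. AW mouse 1 was below IW mouse 1 and IM mouse 3, and AM mouse 3 below IW mouse 1, so the groups overlapped. The log2(fold change) was 0.41 (SE 0.105, FDR-adjusted P-value = 0.0230), and with the slow-fibre covariate it was 0.23 with an FDR-adjusted P-value of 0.126.

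The next small-subunit members, Mrps25 and Mrps5, were also the lowest of the subunit per kb among those tested. Mrps25 had 20.2, 20.5 and 24.01 normalized read counts in IW mice, 23.7, 26.98 and 26.1 across AW mice, 20.8, 20.7 and 20.6 across IM mice and 26.7, 25.8 and 25.5 in AM mice. AW mouse 1 was below IW mouse 3, and all others were separate (log2(fold change) 0.28, SE 0.057, FDR-adjusted P-value = 0.00843). Its longest transcript has 6073 bases, and its exons share 3533 with Nr2c2 on the opposite strand, so its reads are uncertain. Mrps5, the counterpart of bacterial S5, had 19.6, 20.6 and 20.2 normalized read counts in IW mice, 22.2, 25.3 and 23.1 across AW mice, 16.3, 19.4 and 18.6 across IM mice and 22.1, 23.6 and 22.1 in AM mice. Its active mice were all above its inactive mice (log2(fold change) 0.26, SE 0.058, FDR-adjusted P-value = 0.0123). With the slow-fibre covariate neither Mrps25 (0.25 on the log2 scale, FDR-adjusted P-value = 0.0555) nor Mrps5 (0.23, 0.076) was called.

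At the other end, Mrpl17 had 44.8, 44.4 and 42.7 normalized read counts in IW mice, 45.7, 47.5 and 44.8 across AW mice, 46.7, 51.6 and 44.0 across IM mice and 44.9, 46.8 and 46.9 in AM mice. IM mouse 2 was the highest of all 12, and the groups overlapped. The log2(fold change) of Mrpl17 was 0.01 (SE 0.048, FDR-adjusted P-value = 0.860) and was -0.01 without IM mouse 3. Mrps10 had 15.1, 16.9 and 17.0 in IW mice, 16.7, 14.9 and 14.4 across AW mice, 16.4, 14.4 and 16.5 across IM mice and 18.3, 17.3 and 17.6 in AM mice. AM mice were the highest, and the other groups overlapped, with a log2(fold change) of 0.04 (SE 0.063, FDR-adjusted P-value = 0.707). Mrpl20 had 21.5, 24.9 and 22.6 normalized read counts in IW mice, 22.1, 20.9 and 24.3 across AW mice, 19.3, 20.6 and 21.9 across IM mice and 22.3, 22.9 and 22.98 in AM mice. Mrps28 had 37.8, 39.2 and 36.3 normalized read counts in IW mice, 39.8, 35.2 and 38.5 across AW mice, 37.5, 33.6 and 40.6 across IM mice and 41.4, 37.7 and 40.8 in AM mice. Active and inactive mice overlapped in both genes, and both had a log2(fold change) of 0.05 (FDR-adjusted P-values 0.587 and 0.574).

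Counted without a model, all 6 active mice were above all 6 inactive mice in 24 of the 73 members tested (19 of the large and 5 of the small subunit), against 3.09% of all genes tested. All 3 AW mice were above all 3 IW mice in 42 of 73, against a background of 9.09%, and all 3 AM mice were above all 3 IM mice in 49 of 73, against 14.5%. The separation held within both genotypes in 30 of 73 members (25 of the large and 5 of the small subunit), against 4.84% of all genes tested. No member had all active mice below all inactive mice.

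**Figure D3:**
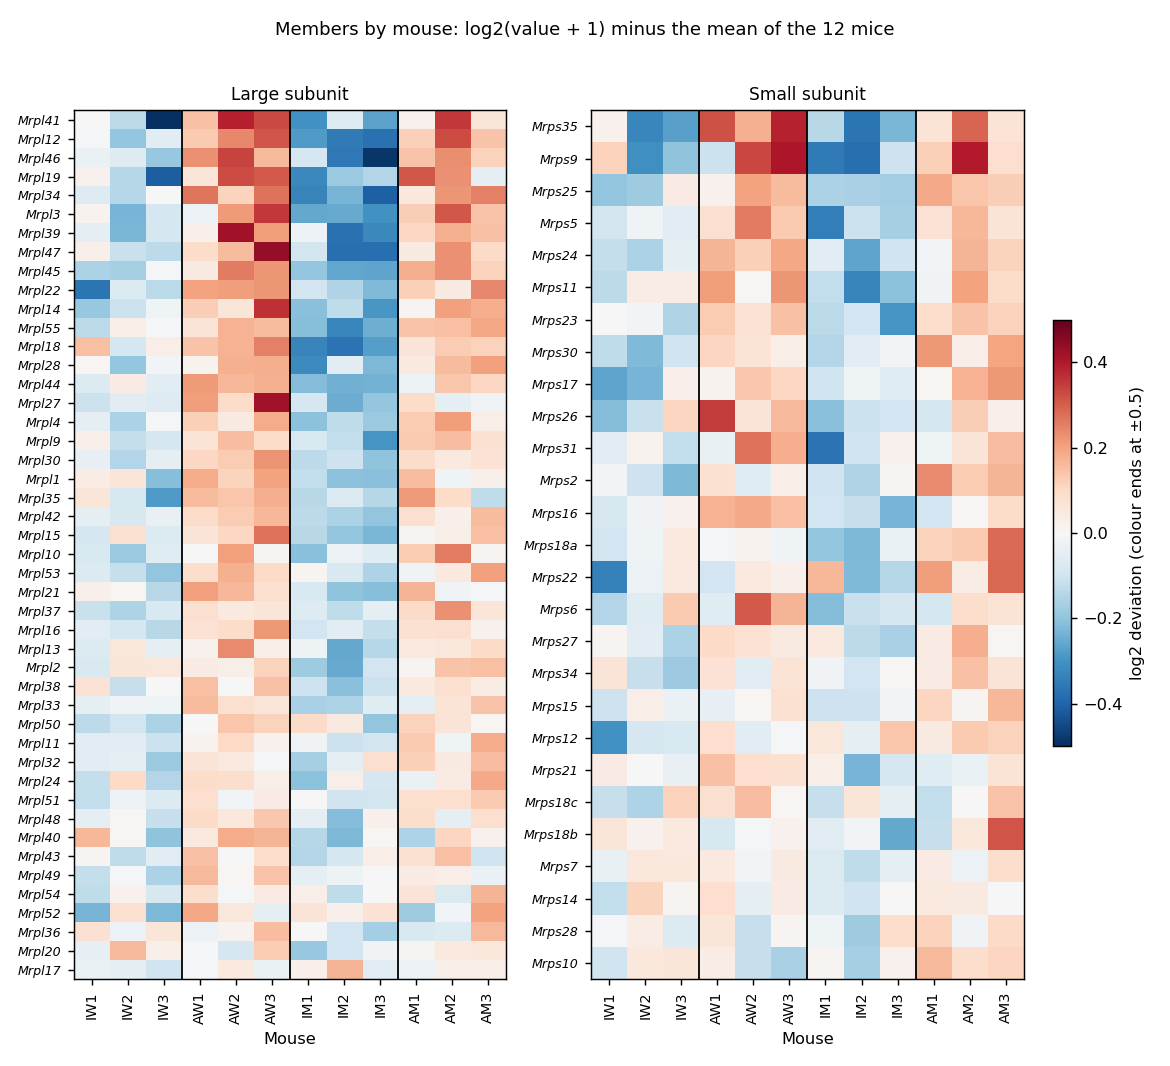
Each of the 73 members tested (rows, ordered by log2(fold change) with activity from the top) in each of the 12 mice (columns), as log2(value + 1) minus the mean of the 12 mice, with the large subunit left and the small subunit right. The 6 active columns are mostly red and the 6 inactive columns mostly blue, most strongly in the upper rows, and the lowest rows, with Mrpl17 and Mrps10, show no such pattern.

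The activity comparison was repeated within each genotype, which uses separate mice. In wild-type mice 70 of 73 members had a positive log2(fold change) (median 0.18), but limma called 0 of them, against 0.0276% of all genes called higher. At an unadjusted P-value under 0.05 there were 38 members, all higher in AW than in IW mice (28 of the large and 10 of the small subunit), against 14.7% of all genes in either direction. Without AW mouse 1, limma called 3 members among 198 genes called in either direction, and with sample weights 11 members among 415 genes, against 2 genes in all with every mouse weighted alike. The smallest FDR-adjusted P-value was 0.0959, for Mrps35 (log2(fold change) 0.49, SE 0.113).

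In myostatin-reduced mice 71 of 73 members had a positive log2(fold change) (median 0.21) and 19 were over-expressed in AM relative to IM mice, 15 of the large and 4 of the small subunit, against 5.31% of all genes. Mrpl12 had the smallest P-value (log2(fold change) 0.53, SE 0.077, FDR-adjusted P-value = 0.00813). It was followed by Mrpl18 at 0.43 and Mrpl55 at 0.42 (both FDR-adjusted P-value = 0.00825). The count of 19 depended on single mice, being 4 without AM mouse 2, 6 without IM mouse 2, 6 without IM mouse 3, 8 without IM mouse 1 and 10 without AM mouse 3. With the slow-fibre covariate it was 7. The genes called in either direction in these fits numbered 86 to 400, against 568 with all mice and no covariate. In the same contrast 5 of the 9 endothelial genes tested were over-expressed (median log2(fold change) 0.69), and 0 of 9 in wild-type mice (median 0.24, unadjusted P-values under 0.05 in 0 genes), and their part in the members' values was not tested. In both genotypes together, 68 of the 73 members (93.2%) had a positive log2(fold change) in each, as had 31.4% of all genes tested. The 5 exceptions were Mrpl17, Mrpl20, Mrpl52, Mrps10 and Mrps18b, all with values between -0.08 and 0.20.

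**Figure D4:**
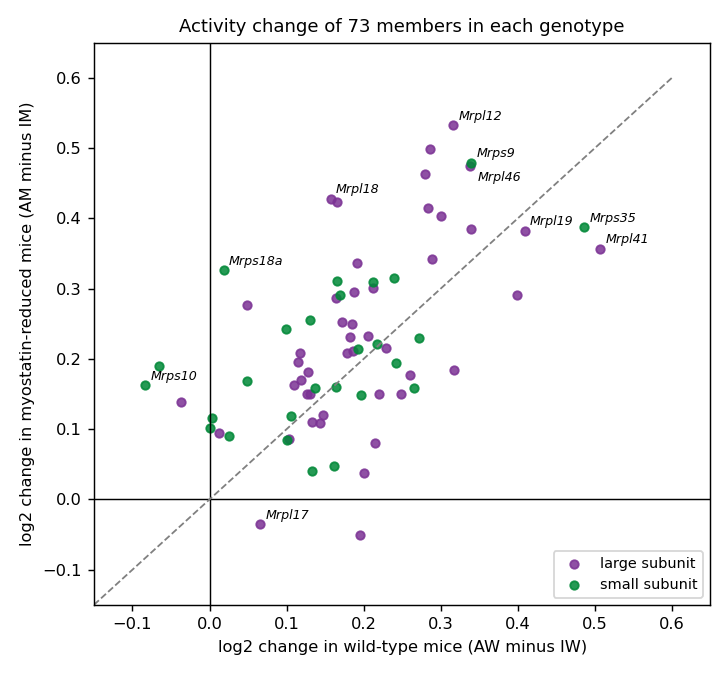
Log2(fold change) with activity in wild-type mice (horizontal) and in myostatin-reduced mice (vertical) of the 73 members tested, coloured by subunit; the dashed line marks equal change. Of the 73 points 68 lie above 0 on both axes, and Mrpl18 (0.16 and 0.43) and Mrps18a (0.02 and 0.33) lie among those farthest above the line.

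The genotype comparison asked whether members differed between myostatin-reduced and wild-type mice. Mrpl18, the counterpart of the bacterial protein that binds 5S ribosomal RNA, was the only member called, against 2.21% of all genes called lower. It lies on chromosome 17 from 13104215 to 13109211 on the minus strand. The normalized read counts of Mrpl18 were 70.0, 59.3 and 64.6 in IW mice, 49.97, 48.6 and 52.0 in IM mice, 69.7, 71.3 and 75.2 in AW mice and 66.0, 69.0 and 68.5 among AM mice. The IM mice were below all 9 others, and AM mice were below AW mice by a small margin. On the log2 scale Mrpl18 fell by 0.22 in myostatin-reduced mice (SE 0.049, FDR-adjusted P-value = 0.0224). The call was lost without AW mouse 3, IM mouse 1, IM mouse 2 or IW mouse 1, and with the slow-fibre covariate. Over all fits the log2(fold change) stayed between -0.251 and -0.188, with FDR-adjusted P-values up to 0.066. Mrpl18 shares 141 exon bases with Tcp1 on the opposite strand, and with no strand stated for the counting those reads cannot be told apart.

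Over all members 53 of 73 had a negative log2(fold change) with genotype, with a median of -0.06 (large subunit -0.07, small subunit -0.02), where all genes had a median of -0.01. Among inactive mice, Mrpl18 was again the only one called (it fell by 0.36, SE 0.069, FDR-adjusted P-value = 0.0245), against 1.13% of all genes called lower. That call was lost without any one of the IM mice, IW mouse 1 or IW mouse 3. Over all fits this log2(fold change) of Mrpl18 stayed between -0.416 and -0.298, with FDR-adjusted P-values up to 0.117. All 3 IM mice were below all 3 IW mice in 15 of 73 members, 11 of the large and 4 of the small subunit, against 12.7% of all genes. The summed members differed by -5.29% between IM and IW mice, with 2458 ± 25.8 against 2595 ± 13.03 (SD, n = 3), and these groups did not overlap. In the same contrast all 11 slow-fibre genes (median log2(fold change) -2.0) and all 9 endothelial genes tested (median -0.22) were negative. Limma called 0 genes of either list, 2 of each had an unadjusted P-value under 0.05, and their part in the members' values was not tested. Among active mice limma called 0 members, against 0.207% of all genes, and 4 members had an unadjusted P-value under 0.05, against 12.3%. The AM sum differed by -1.14% from the AW sum, and these groups overlapped.

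The other 20 members had a positive log2(fold change) with genotype, and none of them was called. Mrps12, the counterpart of the bacterial decoding protein S12, had 18.5, 21.7 and 21.9 normalized read counts in IW mice, 24.1, 22.3 and 25.6 in IM mice, 24.5, 22.2 and 23.0 in AW mice and 23.9, 25.4 and 25.1 in AM mice. It was the only member with all IM mice above all IW mice. Its log2(fold change) with genotype was 0.15 (SE 0.059, FDR-adjusted P-value = 0.168), which did not pass the test. Mrps22 had 13.7, 17.2 and 18.2 normalized read counts in IW mice, 16.4, 18.2 and 17.9 across AW mice, 19.8, 14.9 and 15.8 across IM mice and 20.4, 18.02 and 21.6 in AM mice, and its groups overlapped (genotype log2(fold change) 0.11, FDR-adjusted P-value = 0.487). In the large subunit the most positive values were those of Mrpl32 and Mrpl52, both at 0.06 (FDR-adjusted P-values 0.576 and 0.727). Mrpl32 had 21.03, 21.1 and 19.1 normalized read counts in IW mice, 22.9, 22.6 and 21.7 across AW mice, 19.4, 21.1 and 23.15 across IM mice and 23.9, 22.6 and 24.4 in AM mice. Mrpl52 had 14.7, 18.5 and 14.8 normalized read counts in IW mice, 20.2, 18.3 and 16.9 across AW mice, 18.3, 17.8 and 18.5 across IM mice and 15.4, 17.3 and 20.3 in AM mice. In neither gene did the myostatin-reduced mice stand apart from the wild-type mice.

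Behind Mrpl18, the most negative log2(fold change) with genotype in the large subunit was that of Mrpl27, at -0.17 (SE 0.070, FDR-adjusted P-value = 0.188). Mrpl27 had 12.2, 12.7 and 12.6 normalized read counts in IW mice, 15.5, 14.21 and 18.1 across AW mice, between 11 and 12.4 across IM mice and 14.19, 12.8 and 13.1 in AM mice. Its highest AM mouse was only just below its lowest AW mouse, and the inactive groups overlapped. In the small subunit Mrps16 and Mrps11 were lowest, at -0.15 and -0.13 (FDR-adjusted P-values 0.110 and 0.319). Mrps16 had 29.4, 30.7 and 31.6 normalized read counts in IW mice, 35.2, 35.6 and 34.7 across AW mice, 29.1, 28.65 and 26.4 across IM mice and 29.1, 31.3 and 33.3 in AM mice. At each activity level all myostatin-reduced mice were below all wild-type mice. Mrps11 had 13.2, 14.9 and 14.9 normalized read counts in IW mice, 16.96, 14.6 and 17.1 across AW mice, 13.3, 11.4 and 12.5 across IM mice and 14.4, 16.9 and 15.6 in AM mice. Its genotypes overlapped at both activity levels, IM mouse 1 being just above IW mouse 1.

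Of the members on chromosome 1, where the targeted gene lies, those within 25 Mb of Mstn were Mrps9 (10.2 Mb away, log2(fold change) -0.08, FDR-adjusted P-value = 0.707) and Mrpl30 (15.2 Mb, -0.07, 0.344). Mrpl44, 26.7 Mb from Mstn, had 29.03, 31.4 and 29.3 in IW mice, 26.0, 25.6 and 25.7 in IM mice, 35.5, 34.2 and 34.6 in AW mice and 29.8, 33.6 and 32.8 in AM mice. Within each activity level its myostatin-reduced mice were below its wild-type mice, and its log2(fold change) of -0.16 (SE 0.047) had an FDR-adjusted P-value of 0.0681.

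For the activity-by-genotype interaction limma called 0 members and 0% of all genes. At an unadjusted P-value under 0.05 there were 4 members, Mrps18a, Mrpl18, Mrpl55 and Mrpl2, against 4.10% of all genes, so the members' share was near the background. Mrps18a had 42.9, 45.2 and 47.5 normalized read counts in IW mice, 45.6, 46.5 and 45.2 across AW mice, 39.97, 39.1 and 44.8 across IM mice and 49.7, 50.3 and 56.1 in AM mice. Its AM mice were above all others and its wild-type groups overlapped. The interaction was 0.31 on the log2 scale (SE 0.105) with an FDR-adjusted P-value of 0.890, and that of Mrpl18 was 0.27 (SE 0.098, FDR-adjusted P-value = 0.890).

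Some symbols do not give the place of the protein in the ribosome. The proteins of Mrps18a and Mrps30 sit in the large subunit of the mammalian ribosome. Mrps30 had 30.3, 28.3 and 30.9 normalized read counts in IW mice, 35.7, 34.8 and 34.0 across AW mice, 29.8, 31.9 and 32.8 across IM mice and 38.6, 34.0 and 38.2 in AM mice. Its active mice were all above its inactive mice (log2(fold change) 0.22, SE 0.051, FDR-adjusted P-value = 0.0142). With both genes moved, 32 of 48 large-subunit genes (66.7%) and 10 of 25 small-subunit genes (40%) were over-expressed in active mice. Mrps36 encodes a part of the alpha-ketoglutarate dehydrogenase complex and not of the ribosome. It had 6.83, 7.38 and 8.04 in IW mice, 5.80, 7.68 and 7.62 across AW mice, 4.64, 5.27 and 5.24 across IM mice and 7.06, 9.32 and 7.31 in AM mice, and was too low to be tested. Its IM mice were below all others.

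Other genes needed for mitochondrial translation were set beside the members from lists written by hand. As a background, 7.99% of all genes tested were over-expressed in active mice. Of 7 further proteins of the mitochondrial ribosome with other symbols, all had a positive log2(fold change) with activity (median 0.23) and 4 were over-expressed, namely Dap3 (0.27), Ptcd3 (0.29), Gadd45gip1 (0.29) and Ict1 (0.23). Of 9 translation factors tested, 4 were over-expressed, including the elongation factors Tufm (0.30), Tsfm (0.41) and Gfm1 (0.21). Of 17 enzymes that charge or complete mitochondrial transfer RNAs, 3 were over-expressed (Fars2 at 0.37, Yars2 at 0.28 and Qrsl1 at 0.45), with a median of 0.05. Of 19 genes of ribosome assembly and ribosomal RNA, 2 were over-expressed (10.5%, near the background), with a median of 0.08. They were the RNA methyltransferase genes Mrm1 (0.46) and Nsun4 (0.26). Of 6 genes of mitochondrial transcription limma called 0, 1 had an unadjusted P-value under 0.05 (Polrmt, the mitochondrial RNA polymerase, at -0.12), and the median was 0.02.

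The messages that these ribosomes translate and the ribosomal proteins of the cytosol were described in the same way. Of the 13 mitochondrial protein-coding genes, 2 (15.4%) were over-expressed in active mice (ND5 at 0.64 and ND3 at 0.45 on the log2 scale), with a median of 0.14 and a range from -0.07 to 0.64. These values came from RNA selected for poly(A) and were scaled by the other genes. Of 42 cytosolic ribosomal protein genes tested, 2 were over-expressed, with a median of 0.05 and a range from -0.09 to 0.18. With genotype, 40 of these 42 had a negative log2(fold change) (median -0.08) and 1 was called lower (2.38%, against 2.21% of all genes tested).

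Markers of fibre types and of other cells were compared between active and inactive mice in the same way. Of all genes tested 14.5% were called with activity in either direction. Of 9 endothelial genes tested 7 were over-expressed in active mice (median log2(fold change) 0.49, with Kdr at 0.53, Tie1 at 0.63 and Pecam1 at 0.47), and their summed value over 10 genes was 307 to 461 in inactive and 349 to 678 in active mice, with overlap. Of 10 fast-fibre genes 4 were under-expressed, including Myh4 (-0.57), and 1 over-expressed, Myh1 (1.51). Of the 10 skeletal muscle markers 9 had a negative log2(fold change) (median of all 10 -0.18), 2 were under-expressed and 1 was over-expressed. The 11 slow-fibre genes all had a positive log2(fold change) (median 1.80), of which 1 was called, Casq2 (1.34). Of the fibroblast and matrix genes limma called 0 of 7, of which 3 had an unadjusted P-value under 0.05, and a median of -0.22. It also called 0 of 2 macrophage genes and 0 of 3 Schwann cell genes, with none at an unadjusted P-value under 0.05. The 3 Schwann cell genes were all negative with activity in wild-type mice (median -0.47) and all positive in myostatin-reduced mice (median 0.74), and each had an unadjusted interaction P-value under 0.05 (smallest FDR-adjusted P-value 0.890). Of 3 adipocyte genes 1 was over-expressed, Fabp4 (0.64), which endothelium also expresses, and of 6 blood cell genes 1 was in the table, below the filter. No gene of these lists was at 0 in any mouse. The part of endothelial cells in the members' values was not tested.

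The slow-fibre genes varied between mice of one group far more than the members did. Their score, the mean log2 deviation of 11 genes, was 1.96, -1.96 and 0.09 in IW mice, -1.02, 2.33 and 2.49 in AW mice, -2.23, -1.39 and -1.79 across IM mice and 1.09, 2.06 and -1.63 across AM mice. Scores of active and inactive mice overlapped. With the score as a covariate all 73 members tested kept a positive log2(fold change) with activity, while the calls fell from 42 to 18, all among the 42.

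**Figure D5:**
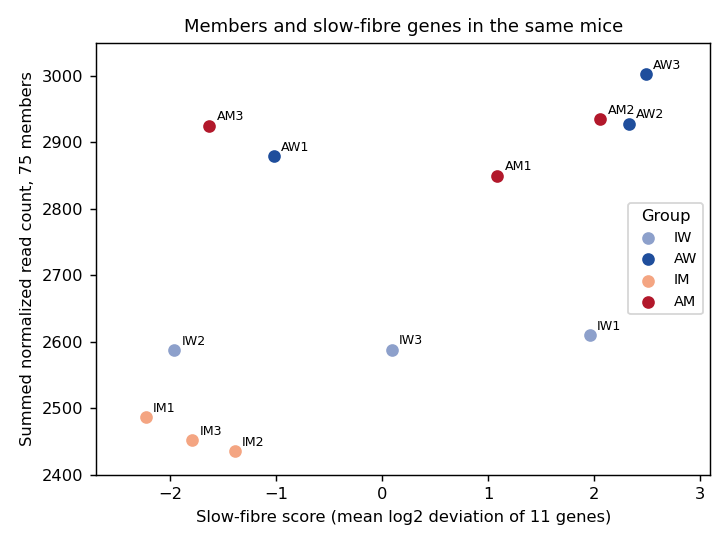
Summed normalized read count of the 75 members (vertical, not starting at 0) against the slow-fibre score (horizontal, mean log2 deviation of 11 genes) in each of the 12 mice, coloured by group. The 6 active mice lie at 2849.7 or above and the 6 inactive mice at 2610 or below, and their scores overlap.

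Members often lay close to another gene. Only genes with a row in the table were searched as neighbours. By mm9 position 23 of the 75 members (30.7%) had such a gene starting head to head within 1000 bases on the opposite strand. The share was 12.8% over the 10116 genes with a position. One such pair consisted of members, Mrpl46 of the large and Mrps11 of the small subunit on chromosome 7, and both were over-expressed in active mice (0.41 and 0.24 on the log2 scale, FDR-adjusted P-values 0.00405 and 0.0414). Their exons share 173 bases on opposite strands. The call of Mrps11 was lost with the replicate block (0.0565), with the slow-fibre covariate (0.0782) and without any one mouse other than AW mouse 2, IM mouse 1 and AM mouse 1 (0.0553 to 0.107), with log2(fold change) values from 0.21 to 0.28. Mrpl47 was paired with Ndufb5, a subunit of complex I, and both were over-expressed (0.35 and 0.34, FDR-adjusted P-values 0.0176 and 0.0019). Mrpl47 shares 158 exon bases with Ndufb5 and 447 with Actl6a, both on the opposite strand. Of the 16 partners tested 3 were called, where 14.5% of all genes tested were called in either direction. They were Ndufb5 and the members Mrpl46 and Mrps11, which are each other's partner. Mrpl18 and Mrpl41 were over-expressed while their partners Tcp1 (-0.07) and Pnpla7 (-0.17) were not called. Mrpl14, Mrpl51 and Mrpl55 were over-expressed too, and their partners Tmem63b (0.143), Ncapd2 (0.13) and 2610507I01Rik (0.065) were positive and not called. In all, 26 members shared exon bases with another annotated gene and are uncertain to that extent. Of the 47 members tested that shared none, 27 were over-expressed in active mice.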

How the data were processed

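Polyadenylated RNA of triceps brachii was sequenced as single-end reads on a Genome Analyzer IIx. Per the submitters' notes and the study's methods, reads were mapped with CASAVA (version not stated) to mm9 and counted in RefSeq exons, with no strand stated. The deposited signal is a normalized read count per gene, which the authors scaled to equal trimmed means and did not divide by gene length. In every gene the highest group mean is at least 3. The step between low values is worth 1 read and gave the depth, and 90.2% to 92.8% of values under 5 were whole multiples of it within 0.1, against 66.2% to 69.5% from 50 to 200. Whole reads were therefore not recovered, and floors cover counting error only.

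Groups and numbers came from the sample titles. limma 3.58.1 in R 4.3.3 was fitted to log2(value + 1) of 7247 genes with a mean of at least 10, with a mean for each of the 4 groups, contrasts for activity, genotype and interaction, and eBayes with a trend. Two-sided P-values were FDR-adjusted (Benjamini-Hochberg) over all genes tested, and a gene was called under 0.05. A log2(value + 1) change understates that of low genes. P-values measure the spread between 3 mice a group. The members, lists, named genes and tests were chosen with earlier results of these data known. All members could be named: values by mouse were given for the 6 most changed called members and for those with the largest, smallest or opposite changes, extreme levels, positions near Mstn or symbols at odds with their place, and those of Mrpl44 and the ranges of Mrpl3 and Mrpl45 were added after values were seen. Same-numbered mice correlated from -0.605 to 0.484 in their deviations and are different mice. In the IM and AM groups alone all 3 correlations were over 0.1 (0.236, 0.171 and 0.322), and the replicate block there left 18 members called in place of 19. Gene positions and lengths are from GENCODE on NCBIM37 (mm9), matched by symbol for all 75 members. The limma script was tested on simulated data. Alternatives were other pseudocounts (0.5 and 5), filters, scaling, no trend, sample weights, a replicate block, the slow-fibre score and leaving out each mouse.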

Additional observations from a re-analysis of the deposited data

How the results depend on the processing

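The count of members over-expressed in active mice was 42 and was 40 with the replicate block, 41 with median-of-ratios scaling, 46 with sample weights, 38 without the trend and 35 without the filter on low values. It was 18 with the slow-fibre score and 11 at a mean of at least 50, where 13 members were tested and all 13 were positive. Leaving out each mouse gave 25 to 40 members, and all 73 stayed positive except without IM mouse 3, where Mrpl17 was at -0.011 (up to 0.046 without other mice). In myostatin-reduced mice the count of 19 became 10 at a mean of at least 50 and 7 with the slow-fibre score, and 4 to 23 with a mouse left out. In wild-type mice the count of 0 became 11 with sample weights, and 0 to 3 with a mouse left out. The genotype call of Mrpl18 was absent with the slow-fibre score (0 members), and leaving out mice gave 0 to 1 there and 0 to 1 among inactive mice. The genotype log2(fold change) of Mrpl18 stayed between -0.251 and -0.188 in every fit. The genotype change of Mrps9 was 0.055 with the slow-fibre score in place of -0.08. The cause of these shifts was not tested, beyond the fewer genes or mice in a fit. The replicate block ended the activity calls of Mrps11 and Mrpl33 (FDR-adjusted P-values 0.0565 and 0.0571). Mrpl33 and Mrps18a also missed the threshold without the filter or the trend (0.0547 to 0.0637), and the 24 activity calls that ended with the slow-fibre score included those of Mrpl41, Mrps9, Mrpl19, Mrps5, Mrps25, Mrps11, Mrpl33, Mrpl47 and Mrps18a. The large-to-small ratio of active over inactive mice was 1.04 and stayed between 1.029 and 1.045 with a mouse left out.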
